A study of Mus musculus with 23 samples.

Results

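The comparison of L-AC with saline in the liver of wild-type mice covers 13 of the 23 libraries of the series, 6 from mice given L-AC and 7 from mice given saline. Members were taken by their labels: genotype wt, with either treatment, and all expressed genes entered the test. All mice were of a mixed B6/129 strain, and the remaining 10 libraries came from mice lacking Ehhadh under the same treatments (5 each). The saline mice were 29 to 45 weeks old and the L-AC mice 28 to 44 weeks old. Each library is taken as 1 mouse, since the labels give each its own number and age. The labels name the agent by the abbreviation L-AC only and give no dose, route, duration or feeding state, so acute and lasting responses cannot be told apart. As background, the compound L-aminocarnitine is known to block CPT2, an enzyme of mitochondrial fatty acid import.

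Long-chain fatty acids enter the mitochondria of hepatocytes as carnitine esters: CPT1 makes the ester at the outer membrane, a translocase carries it inward, and CPT2 returns the acyl group to coenzyme A for beta-oxidation. Peroxisomes shorten very long-chain and dicarboxylic acids by their own beta-oxidation, and cytochrome P450 enzymes of the Cyp4 family make dicarboxylic acids by omega-oxidation. The nuclear receptor PPARA, which binds fatty acids, is the main known inducer of the genes of these routes in mouse liver, while SREBP2 and SREBP1 control the genes of sterol and fatty acid synthesis.

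Reads per gene were counted in polyA-selected libraries, with totals of 30352749 to 47524125 in saline and 24521896 to 47824552 in L-AC. Levels are given as CPM, counts scaled to a common library size by TMM. Every fold change is a log2 value of L-AC over saline, SE is its standard error, and a gene said to rise or fall by a number did so by that log2 fold change. Fold changes come from the quasi-likelihood test of edgeR fitted over 14196 genes. A gene was called at a Benjamini-Hochberg adjusted p under 0.05. The first principal component of the 13 libraries held 56.1% of the variance and separated the treatments, from -51.9 to -29.8 in saline and from 27.5 to 67.2 in L-AC. Saline replicate 1 stood apart on the second component (8.82% of the variance), at -55.3 against -9.43 to 18.2 in the other saline libraries. Without that library 7726 genes were called, against 7572 with it. The hepatocyte transcripts Alb and Apoe ranked first and second by TPM, reads scaled by transcript length, in both groups.

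Most measured genes differed between the treatments, in both directions about equally under TMM scaling. The balance depends on the scaling: with total counts in place of TMM, 57.4% of calls were higher. Of the genes tested, 53.3% were called, 26.6% higher and 26.7% lower, with a median log2 fold change of -0.01 and a median size of 0.37. Changes over 2-fold were found for 6.25% of genes upward and 7.92% downward. Changes over 4-fold were found for 232 genes that rose and 237 that fell, and over 16-fold for 34 and 30. All 6 L-AC libraries lay above all 7 saline libraries for 12.0% of genes and below them for 12.1%. The genes called higher held 18.4 to 21.4% of the CPM in saline libraries and 33.5 to 39.9% in L-AC libraries. Those called lower held 47.0 to 57.3% in saline libraries and 28.4 to 35.1% in L-AC libraries. These shares include genes chosen by the test itself and describe how much of the mRNA pool the calls touch. Counts of called genes in a list of genes are to be read against the shares over all genes, 26.6% higher and 26.7% lower.

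**Figure D1:**
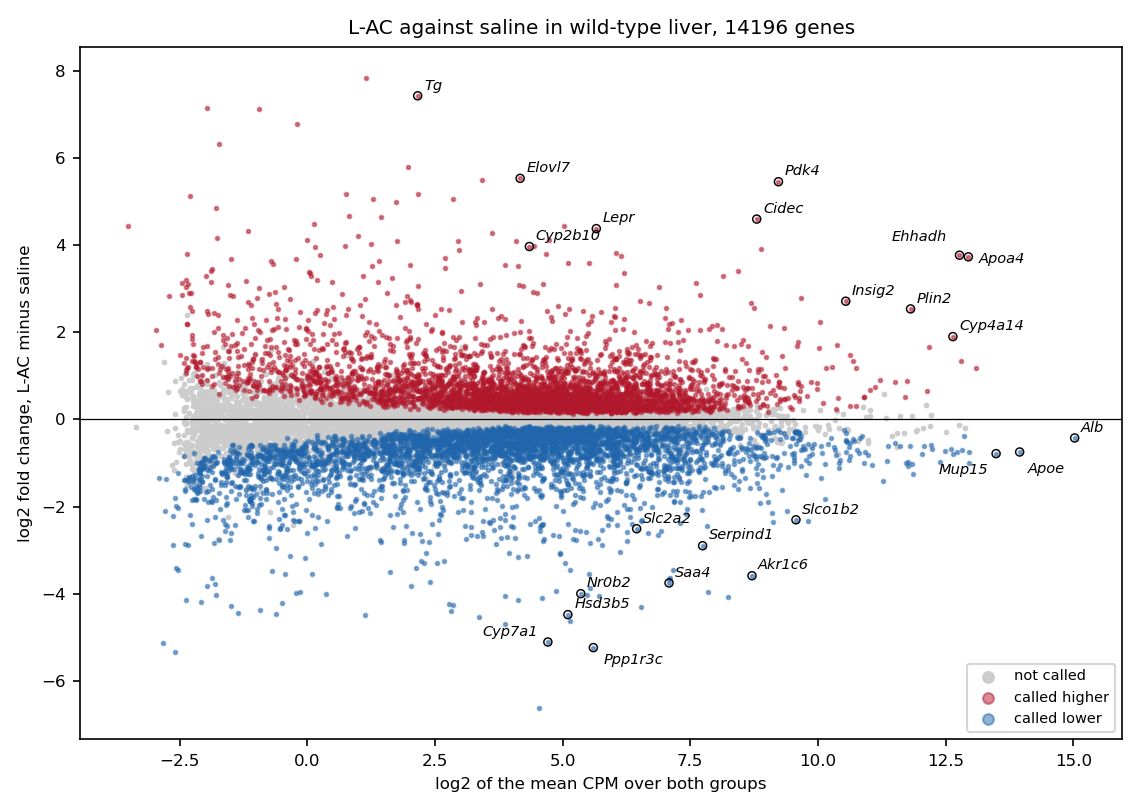
Each point is 1 of the 14196 genes, with the log2 of its mean CPM over both groups on the horizontal axis and its log2 fold change (L-AC minus saline) on the vertical axis. Red genes were called higher, blue genes lower and grey genes were not called. Apoa4, Ehhadh, Plin2 and Cyp4a14 combine a large rise with a high level, and Alb, Apoe and Mup15 fell at the top of the range of levels.

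Genes of peroxisomal beta-oxidation rose as a group. Of 27 tested, 15 were called higher and 4 lower, with a median log2 fold change of 0.51, and their summed level was 21580 to 26280 CPM (median 22130) under saline and 44900 to 55310 CPM (median 49820) under L-AC. Ehhadh (chromosome 16, 21761285 to 21787834), which carries out the hydration and dehydrogenation steps and is the gene deleted in the other mice of the series, held 635 to 1635 CPM in saline libraries (median 884) against 10260 to 14650 CPM in L-AC libraries (median 13470). No L-AC library came near the saline range (log2 fold change 3.77, SE 0.233, adjusted p = 3.53e-11). The thiolase genes of the last step, Acaa1a and Acaa1b, are near-identical copies between which reads can be split. Acaa1b held 1084 to 4095 CPM in saline libraries (median 2088) against 6083 to 7901 CPM in L-AC libraries (median 7080), and the groups did not overlap. Acaa1a rose as well (log2 fold change 1.33, adjusted p = 1.07e-04), with 1 saline library within the L-AC range.

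The members of the route did not all follow. Abcd3, which carries acyl-CoA into the peroxisome, and Crat, which makes short-chain carnitine esters for export, rose by 1.19 and 1.68 on the log2 scale (adjusted p = 4.75e-09 and 6.54e-09). The transporter gene Abcd2 fell (log2 fold change -1.3, adjusted p = 0.00385). Hsd17b4, the bifunctional enzyme of the D-specific branch that also serves bile acid precursors, rose by only 0.55 (adjusted p = 6.76e-05), and Phyh, which starts the alpha-oxidation of phytanic acid, fell from 1414 to 1953 CPM under saline to 1108 to 1350 CPM under L-AC (log2 fold change -0.50, adjusted p = 8.40e-05). Pecr, a peroxisomal enoyl-CoA reductase of chain elongation, showed the largest fall of the list, with 110.4 to 205 CPM in saline libraries (median 161) against 27 to 62.5 CPM in L-AC libraries (median 39.5) (log2 fold change -1.93, SE 0.2, adjusted p = 6.09e-08). The sterol carrier and thiolase gene Scp2 was at 4571 CPM in the median saline library and 4864 CPM in the median L-AC library (log2 fold change 0.11, adjusted p = 0.206), and was called under scaling by total counts alone (log2 fold change 0.18, adjusted p = 0.0316).

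The genes of the peroxisome itself moved less. Among 19 biogenesis and membrane genes, 10 were called higher and 5 lower, with a median of 0.25. Pex11a, a division factor of peroxisomes, rose by 2.08 (adjusted p = 7.52e-08), and Pex19, Pex16 and Pex3, which place membrane proteins, by 1.01, 0.80 and 0.77. Catalase (gene Cat), the enzyme that removes the hydrogen peroxide made by peroxisomal oxidation, went the other way, with 2075 to 3482 CPM in saline libraries (median 2938) against 1067 to 1760 CPM in L-AC libraries (median 1431) (log2 fold change -1.05, adjusted p = 1.21e-06), and every L-AC library was below every saline library.

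Omega-oxidation genes moved both ways. Of 14 tested, 6 were called higher and 4 lower (median 0.13). Cyp4a14 (chromosome 4, 115486200 to 115496141), a fatty acid omega-hydroxylase, held 523 to 5520 CPM in saline libraries (median 2200) against 6113 to 12120 CPM in L-AC libraries (median 10670). The saline libraries spread over a wide range, yet the highest of them lay below the lowest L-AC library (log2 fold change 1.9, SE 0.354, adjusted p = 1.11e-04). Cyp4a10 rose by 0.85 with overlapping groups (adjusted p = 0.00426), and Aldh3a2, a fatty aldehyde dehydrogenase, by 1.18 (adjusted p = 3.38e-04). The Cyp4a genes are close copies, and reads can be shared among them. Of the Cyp4f genes, Cyp4f17 rose (log2 fold change 1.25, adjusted p = 1.73e-06) while Cyp4f14 fell (log2 fold change -0.92, adjusted p = 2.54e-04), as did Cyp4v3 (log2 fold change -0.65, adjusted p = 6.33e-06).

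The genes that carry fatty acids into mitochondria rose. The carnitine list had 6 of 9 tested genes called higher and 1 lower (median 0.75), and the groups of all 6 did not overlap. Some of its members, Crat among them, are also in the peroxisomal beta-oxidation list. Cpt2, the enzyme that L-aminocarnitine is known to inhibit, ran from 253 to 307 CPM (median 273) under saline and from 407 to 536 CPM (median 471) under L-AC (log2 fold change 0.75, SE 0.0785, adjusted p = 7.41e-08). Its groups did not overlap. Cpt1a, the liver form of the outer-membrane enzyme, rose by 0.84 (adjusted p = 4.45e-06). The muscle form Cpt1b held 12.1 to 35.2 CPM in saline libraries (median 19) against 91.7 to 129 CPM in L-AC libraries (median 109.5) (log2 fold change 2.36, SE 0.19, adjusted p = 1.52e-09). Slc25a20, the translocase, and Slc22a5, the carnitine transporter of the cell membrane, rose by 0.59 and 2.06 (adjusted p = 6.42e-06 and 3.50e-11). Bbox1, which makes carnitine in the liver, fell by 0.62 (adjusted p = 0.00144).

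Mitochondrial beta-oxidation genes were mixed: 7 of 20 were called higher and 6 lower, with a median of 0.03. Those that rose included enzymes of long chains. Acadl, the long-chain dehydrogenase, rose from a median of 338 to 616 CPM (log2 fold change 0.87, adjusted p = 3.81e-09), Hadha, a subunit of the trifunctional protein, from a median of 606 to 992 CPM (log2 fold change 0.66, adjusted p = 6.01e-06), and Etfdh, which hands electrons to the respiratory chain, from a median of 441 to 742 CPM (log2 fold change 0.76, adjusted p = 3.24e-08). Among those that fell, Acadsb, a dehydrogenase of branched short chains, fell from a median of 152 to 81.3 CPM (log2 fold change -0.81, adjusted p = 4.45e-07), Acad8, of valine breakdown, fell by 0.55, and the thiolase Acaa2 fell by 0.56.

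The ketone body list did not rise, with 1 of 10 genes called higher and 3 lower (median -0.18). Bdh1, which makes 3-hydroxybutyrate, fell from a median of 374 to 199.7 CPM (log2 fold change -0.99, adjusted p = 0.011), and Slc16a1, a transporter of lactate and ketone bodies, was the gene that rose (from a median of 131 to 223 CPM; log2 fold change 0.97, adjusted p = 2.29e-05).

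Acyl-CoA thioesterases, which free fatty acids from coenzyme A, rose almost as a whole. Of 12 tested, 10 were called higher, with a median of 1.4. Some of these genes are also in the peroxisomal beta-oxidation list, so the counts of both lists are not independent. The cytosolic Acot1 ran from 92 to 439.9 CPM (median 172) under saline and from 1234 to 1636 CPM (median 1397) under L-AC (log2 fold change 2.79, SE 0.27, adjusted p = 2.16e-08), and the mitochondrial Acot2 held 21.1 to 114 CPM in saline libraries (median 39.2) against 439 to 672 CPM in L-AC libraries (median 495) (log2 fold change 3.3, SE 0.286, adjusted p = 4.56e-09). In both, the lowest L-AC library lay more than 2-fold above the highest saline library. Acot1 to Acot6 lie in 1 cluster of similar genes, so that single members are less certain than the group. Outside the cluster, Acot12, which hydrolyses acetyl-CoA, rose by 0.82 and Acot9 by 1.36 (adjusted p = 2.12e-08 and 9.01e-07).

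**Figure D2:**
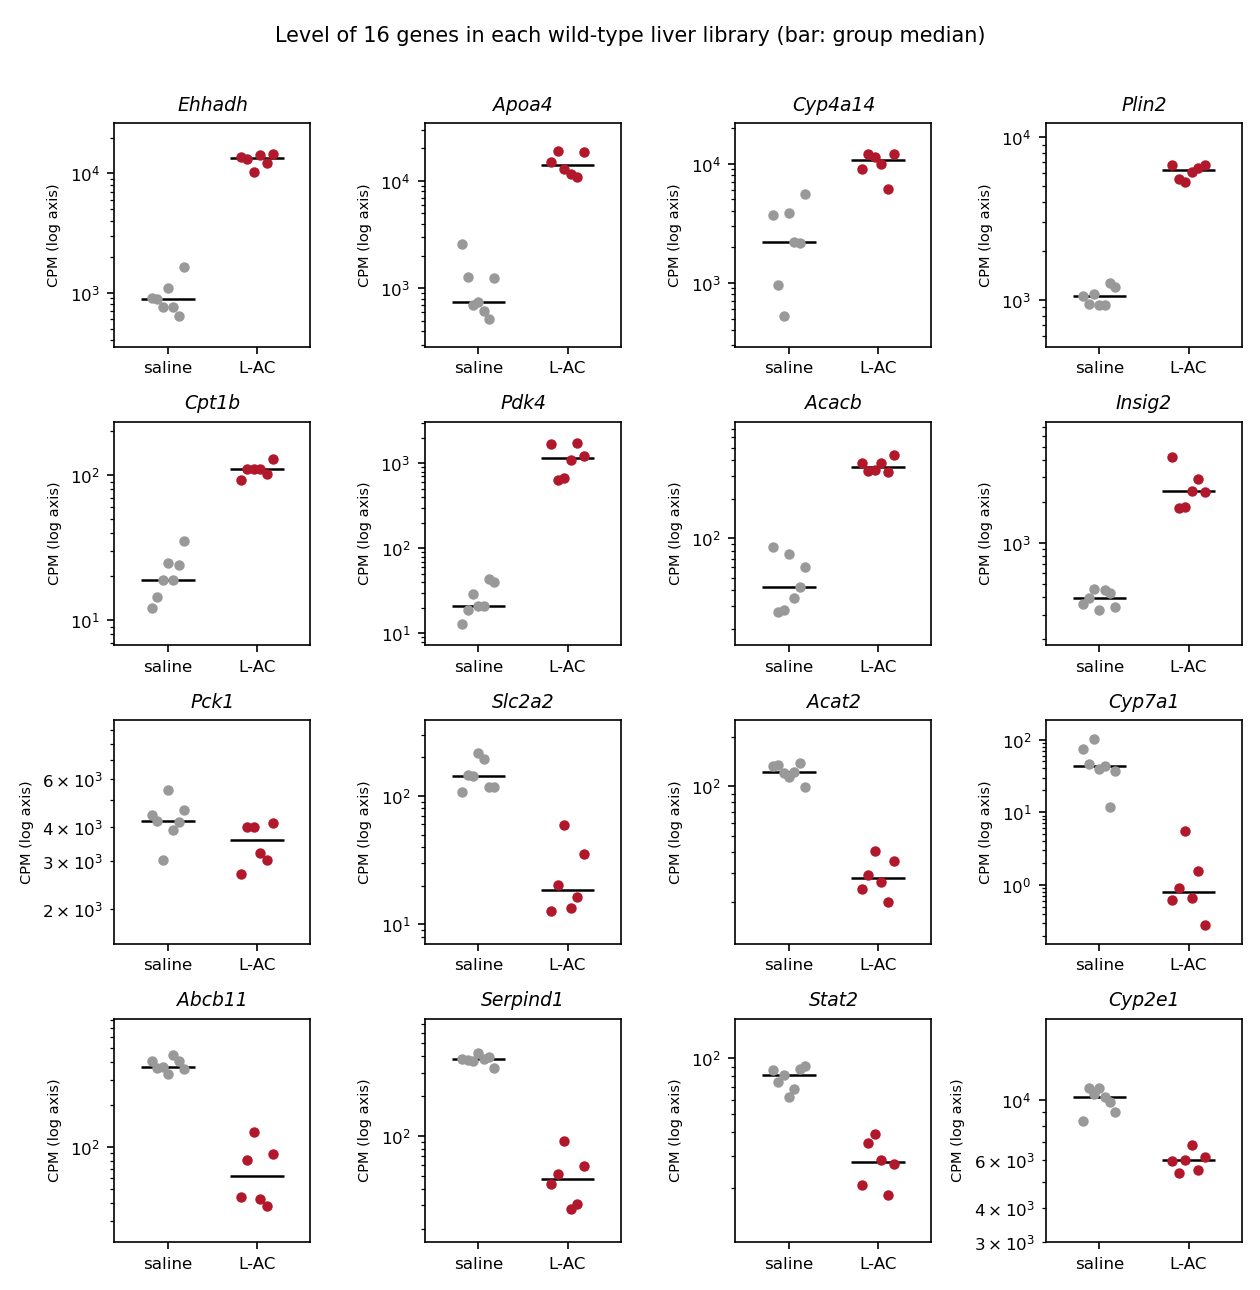
CPM (log axis) of 16 genes in each of the 7 saline libraries (grey) and 6 L-AC libraries (red), with the group median as a bar. The groups do not overlap for 15 of the genes shown, and overlap for Pck1.

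Genes of lipid droplets had the highest median of the 60 pathway lists. Of 14 tested, 12 were called higher and 1 lower, with a median log2 fold change of 1.67, and their summed level was 2319 to 3282 CPM (median 2979) under saline and 9320 to 11800 CPM (median 10840) under L-AC. Plin2, the main droplet coat protein of hepatocytes, ran from 926 to 1259 CPM (median 1061) under saline and from 5276 to 6763 CPM (median 6320) under L-AC (log2 fold change 2.54, SE 0.127, adjusted p = 3.38e-12). Cidec, which fuses droplets, held 15.5 to 74.7 CPM in saline libraries (median 21.4) against 626 to 1089 CPM in L-AC libraries (median 912) (log2 fold change 4.6, SE 0.394, adjusted p = 3.75e-09). No L-AC library came near the saline range for either gene. Plin5, which ties droplets to mitochondria, and Cidea, a fat-cell relative of Cidec, rose by 2.08 and 2.34 (adjusted p = 3.56e-09 and 0.0021), the latter with overlapping groups. Cideb, which acts in lipoprotein lipidation, was not called (log2 fold change -0.20, adjusted p = 0.185), and the member called lower was Fitm1, a droplet-forming protein (log2 fold change -1.04, adjusted p = 0.0161).

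Genes of triglyceride turnover rose on both sides of the cycle, 9 of 19 higher and 3 lower (median 0.42). Pnpla2, the triglyceride lipase ATGL, held 87.7 to 153 CPM in saline libraries (median 101) against 503 to 902 CPM in L-AC libraries (median 731) (log2 fold change 2.67, SE 0.156, adjusted p = 2.19e-11). On the synthesis side Lpin2, a phosphatidate phosphatase, rose from a median of 391 to 1163 CPM (log2 fold change 1.68, adjusted p = 4.23e-09), Gpam, of the first acylation, by 1.16, and Dgat1, of the last, by 0.93. The other last-step enzyme, Dgat2, was not called (log2 fold change 0.23, adjusted p = 0.477). Without saline replicate 1, 5 genes of this list were called lower instead of 3.

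Fatty acid uptake and activation changed in part. Of 15 uptake genes 6 rose and 3 fell, and of 12 synthetase genes 2 rose and 3 fell, shares near or below those over all genes for the synthetases. Slc27a4, a fatty acid transport protein, ran from 49.1 to 71 CPM (median 57.9) under saline and from 193 to 309.6 CPM (median 241) under L-AC (log2 fold change 2.0, SE 0.126, adjusted p = 4.83e-11). Fabp4, the fatty acid binding protein of fat cells and macrophages, held 3.79 to 9.02 CPM in saline libraries (median 4.71) against 19.7 to 123 CPM in L-AC libraries (median 49.1) (log2 fold change 3.6, SE 0.487, adjusted p = 2.42e-06), whereas the liver form Fabp1 was not called (log2 fold change -0.30, adjusted p = 0.282). Acsl1, the main long-chain synthetase of liver, rose from a median of 2441 to 4280 CPM (log2 fold change 0.89, adjusted p = 9.38e-07). Lipc, the hepatic lipase, fell from a median of 140.2 to 63 CPM (log2 fold change -1.11, adjusted p = 7.09e-08).

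Lipogenic genes did not move together. In the list, 4 of 16 genes were called higher and 6 lower (median -0.06). Acacb, the acetyl-CoA carboxylase whose malonyl-CoA restrains CPT1, held 27.1 to 85.4 CPM in saline libraries (median 42.4) against 325 to 438 CPM in L-AC libraries (median 357) (log2 fold change 2.85, SE 0.228, adjusted p = 1.34e-09). Mlycd, which removes malonyl-CoA, also rose (from a median of 132 to 239 CPM; log2 fold change 0.81, adjusted p = 3.83e-08). Among the transcription factors of the pathway, Mlxipl, which encodes ChREBP, ran from 304 to 408 CPM (median 358) under saline and from 81.4 to 142 CPM (median 113) under L-AC (log2 fold change -1.66, SE 0.138, adjusted p = 2.41e-09), and Srebf1 fell by 1.13 (adjusted p = 8.66e-05). The groups of both genes did not overlap. Acly, which makes cytosolic acetyl-CoA, fell by 0.95 and the elongase Elovl6 fell by 1.7 (adjusted p = 2.28e-06 and 2.31e-06). Fasn (log2 fold change -0.48, adjusted p = 0.144), Acaca (log2 fold change 0.08, adjusted p = 0.643) and Scd1 (log2 fold change 0.33, adjusted p = 0.52), the enzymes by which the pathway is best known, were not called.

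Pdk4, the kinase that switches off pyruvate dehydrogenase (chromosome 6, 5483351 to 5496278), was among the genes that rose most. It ran from 13.1 to 43.6 CPM (median 21.1) under saline and from 633 to 1710 CPM (median 1170) under L-AC (log2 fold change 5.46, SE 0.373, adjusted p = 1.48e-10), and by TPM its rank rose from 5488 to 213. Of 14 genes of pyruvate dehydrogenase and its control 4 rose and 1 fell, the latter being the kinase Pdk1 (log2 fold change -0.83, adjusted p = 3.63e-05). Tricarboxylic acid cycle genes rose modestly, 9 of 17 higher and 1 lower (median 0.22). Dlst and Fh1, of the steps at 2-oxoglutarate and fumarate, rose by 0.96 and 0.92 (adjusted p = 4.27e-09 and 1.70e-05), and Idh2 fell (log2 fold change -0.64, adjusted p = 0.0118).

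Among genes of glucose handling, several of uptake and glycogen fell. Slc2a2, the glucose transporter GLUT2, held 108 to 216 CPM in saline libraries (median 142) against 12.7 to 59 CPM in L-AC libraries (median 18.4) (log2 fold change -2.51, SE 0.352, adjusted p = 3.85e-06). Each L-AC library lay below each saline library. The glycolysis list as a whole had 9 of 24 genes higher and 10 lower (median 0.01). Pklr, the liver pyruvate kinase, fell from a median of 90.9 to 32.9 CPM (log2 fold change -1.34, adjusted p = 7.47e-07), while the aldolase Aldoa rose by 1.03 (adjusted p = 7.74e-08).

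Glycogen genes fell more often than they rose: 9 of 17 were called lower and 5 higher (median -0.29). Ppp1r3c, which directs protein phosphatase to glycogen, held 43.4 to 151 CPM in saline libraries (median 82) against 0.803 to 6.59 CPM in L-AC libraries (median 1.85) (log2 fold change -5.24, SE 0.482, adjusted p = 1.02e-08), and its liver relative Ppp1r3b fell from a median of 281 to 24.8 CPM (log2 fold change -3.46, adjusted p = 1.97e-08). Pygl, the glycogen phosphorylase, fell by 1.18. Gluconeogenic genes changed little as a set (4 of 14 higher, 3 lower). Without L-AC replicate 5, 2 were higher, and without saline replicate 6, 5 were lower. Pck1, the rate-controlling enzyme, ran from 3035 to 5441 CPM (median 4187) under saline and from 2693 to 4146 CPM (median 3596) under L-AC, with overlapping groups (log2 fold change -0.28, SE 0.16, adjusted p = 0.152). G6pc (log2 fold change -0.32, adjusted p = 0.208) and Pcx (log2 fold change -0.11, adjusted p = 0.53) were not called either. Gpt2, an alanine aminotransferase, rose from a median of 577 to 1985 CPM (log2 fold change 1.7, adjusted p = 5.95e-08), and Fbp1, a fructose bisphosphatase, fell from a median of 913 to 527 CPM (log2 fold change -0.93, adjusted p = 4.89e-06). Igfbp1, a gene known to be repressed by insulin, rose from a median of 126 to 862 CPM with overlapping groups (log2 fold change 2.1, adjusted p = 5.75e-04).

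Cholesterol synthesis genes fell together. Of 20 tested, 16 were called lower and 1 higher, with a median log2 fold change of -1.61, the lowest median of the 60 pathway lists. Their summed level was 1477 to 3307 CPM (median 1790) under saline and 784 to 1052 CPM (median 918) under L-AC. The first cytosolic step, Acat2, ran from 99.8 to 139 CPM (median 122) under saline and from 20.1 to 41 CPM (median 27.8) under L-AC (log2 fold change -2.07, SE 0.147, adjusted p = 2.71e-10). Sqle, the epoxidase that commits squalene to sterols, held 12.3 to 114 CPM in saline libraries (median 19.9) against 5.21 to 11.5 CPM in L-AC libraries (median 6.74) (log2 fold change -2.33, SE 0.457, adjusted p = 1.92e-04). In both the lowest saline library lay above the highest L-AC library, and the saline range of Sqle was stretched by saline replicate 1, at 114 CPM. Hmgcs1, the cytosolic synthase, overlapped between groups (from a median of 210.4 to 114 CPM; log2 fold change -0.88, adjusted p = 0.0243) and without that library was no longer called (adjusted p = 0.0866). Idi1 and Msmo1, an isomerase and a demethylating oxidase, fell, with log2 fold changes of -3.15 and -2.75 (adjusted p = 2.33e-06 and 3.46e-06). Hsd17b7, which acts in sterol synthesis and on steroid hormones, was the member that rose (log2 fold change 0.83, adjusted p = 9.33e-04), and Lss (log2 fold change -0.29, adjusted p = 0.384), Dhcr7 (log2 fold change 0.07, adjusted p = 0.863) and Pmvk (log2 fold change 0.05, adjusted p = 0.916) were not called.

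The control genes of the pathway changed in both directions. Among 11 genes of SREBP2 control and sterol uptake, 7 fell and 3 rose. The INSIG proteins hold SREBP in the endoplasmic reticulum when sterols are plentiful. Insig1, itself a known SREBP target, ran from 113 to 225 CPM (median 174) under saline and from 18.9 to 37 CPM (median 29.1) under L-AC (log2 fold change -2.61, SE 0.181, adjusted p = 2.05e-10). Insig2 held 322 to 462 CPM in saline libraries (median 399) against 1809 to 4247 CPM in L-AC libraries (median 2375) (log2 fold change 2.71, SE 0.233, adjusted p = 3.87e-09). The 2 genes thus moved in opposite directions by similar amounts, with no overlap in either. Srebf2 fell by 0.79 and the cholesterol importer Scarb1 fell by 1.37, while Npc1, which exports cholesterol from lysosomes, rose by 0.69.

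The promoters of the sterol genes are shown because the group moved together and shares a sequence feature. The known motif CCAAT, bound by the factor NF-Y that acts beside SREBP, was searched on both strands in the 250 bases before the RefSeq start (build GRCm38.p6), together with CACCCCAC, a core of the sterol regulatory element. The motifs do not contain each other. Promoters were listed for 10475 of the 14196 genes. CCAAT was present for 14 of the 15 cholesterol synthesis genes with a listed promoter (93.33%), against 40.18% of all genes tested. It was also present for 45.89% of the genes that fell and 40.75% of the genes that rose by over 2-fold. The gene without it was Acat2, and both Hsd17b7 and Dhcr7, which were not called lower, had it. CACCCCAC was present for Acat2 and Hmgcs1 (13.33%), against 3.408% of all genes. The 150 bases before the start of 3 genes that fell and of Insig2, which rose, are given 5′ to 3′ on the strand of the gene, with both motifs in capitals. A CCAAT on the other strand reads ATTGG here.
Hmgcs1, chr13:119690201-119690350, plus strand: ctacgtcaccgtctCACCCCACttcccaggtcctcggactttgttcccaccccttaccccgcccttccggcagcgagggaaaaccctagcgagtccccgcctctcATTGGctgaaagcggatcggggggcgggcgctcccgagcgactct
Idi1, chr13:8885456-8885605, plus strand: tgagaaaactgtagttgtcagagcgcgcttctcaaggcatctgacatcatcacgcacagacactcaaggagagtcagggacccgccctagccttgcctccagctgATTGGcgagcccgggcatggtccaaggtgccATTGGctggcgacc
Msmo1, chr8:64733579-64733728, minus strand: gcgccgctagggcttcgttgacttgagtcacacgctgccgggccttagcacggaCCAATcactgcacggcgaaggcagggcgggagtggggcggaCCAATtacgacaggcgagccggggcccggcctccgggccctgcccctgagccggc
Insig2, chr1:121332590-121332739, minus strand, the first of 3 listed starts: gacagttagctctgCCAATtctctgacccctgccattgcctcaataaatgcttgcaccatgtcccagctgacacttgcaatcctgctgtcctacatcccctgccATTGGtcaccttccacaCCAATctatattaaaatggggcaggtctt
Hmgcs1 holds both motifs, Idi1 and Msmo1 hold a pair of CCAAT each, and the Insig2 stretch has 3. A match describes these letters only, and the same letters were found before genes that fell and a gene that rose.

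Sterol export and the liver X receptor targets did not move in 1 direction (3 of 10 higher, 4 lower, and 5 higher under scaling by total counts alone). Abcg5 and Abcg8, which together pump sterols into bile, fell, with log2 fold changes of -1.39 and -1.12 (adjusted p = 9.00e-07 and 1.35e-05), and Lpcat3, a phospholipid acyltransferase, rose by 0.85 (adjusted p = 3.58e-08).

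Bile acid genes fell at the start of synthesis and at uptake and export. Of 12 synthesis genes 7 were called lower and 2 higher (median -0.47). Cyp7a1, the rate-limiting enzyme, ran from 11.8 to 102 CPM (median 43.9) under saline and from 0.277 to 5.58 CPM (median 0.784) under L-AC (log2 fold change -5.11, SE 0.579, adjusted p = 2.24e-07), with 13 to 138 reads in the L-AC libraries. Akr1c6, listed here for its steroid dehydrogenase activity, held 563 to 949 CPM in saline libraries (median 830.5) against 36.6 to 96.5 CPM in L-AC libraries (median 60.5) (log2 fold change -3.59, SE 0.259, adjusted p = 3.34e-10). Cyp8b1, which sets the share of cholic acid, went the other way (479 to 781 CPM in saline libraries (median 578) against 836 to 1472 CPM in L-AC libraries (median 982); log2 fold change 0.77, adjusted p = 0.0108), and its groups did not overlap. Cyp7b1, of the alternative pathway, fell by 1.75 (adjusted p = 3.88e-04), and Cyp27a1 lay at the threshold (log2 fold change -0.22, adjusted p = 0.0585), called by DESeq2 (adjusted p = 0.0462), among genes with at least 1 CPM in 5 libraries (adjusted p = 0.0434) and without saline replicate 1 or 3 or L-AC replicate 3 or 6 (adjusted p = 0.0324 to 0.0498).

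In the list of bile acid transport and signalling through the receptor FXR, 9 of 12 genes fell and 1 rose (median -0.93). Abcb11, the export pump, held 330 to 449 CPM in saline libraries (median 370) against 37.9 to 128 CPM in L-AC libraries (median 62.7) (log2 fold change -2.44, SE 0.247, adjusted p = 4.21e-08). Slc10a1 and Slco1b2, the uptake carriers, fell from a median of 517 to 167 CPM (log2 fold change -1.51, adjusted p = 4.19e-10) and from a median of 1316 to 236 CPM (log2 fold change -2.31, adjusted p = 1.45e-05). No L-AC library reached the saline range in these 3 genes. Nr0b2, which encodes the repressor SHP, a known target of FXR and repressor of Cyp7a1, ran from 55.6 to 120.2 CPM (median 71.3) under saline and from 1.1 to 9.11 CPM (median 4.86) under L-AC (log2 fold change -4.0, SE 0.539, adjusted p = 2.28e-06), so that it and Cyp7a1 fell in the same libraries. Nr1h4, which encodes FXR, fell by 0.39 (adjusted p = 0.00127).

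Apolipoproteins and lipoprotein assembly changed in both directions. Of 18 tested, 8 were called lower and 3 higher (median -0.27). Apoa4 (chromosome 9, 46240844 to 46243458), of lipoproteins made under lipid load, held 517 to 2615 CPM in saline libraries (median 753) against 10870 to 19090 CPM in L-AC libraries (median 13990) (log2 fold change 3.73, SE 0.423, adjusted p = 2.24e-07). In TPM it rose from 1198 ± 822 (SD, n = 7) to 17420 ± 3809 (SD, n = 6), from rank 116 to rank 3 in the liver. Saline replicate 1 held the highest saline value, and every L-AC library was above it. Apoe, the remnant-clearing apolipoprotein, fell (16620 to 22350 CPM in saline libraries (median 20520) against 9886 to 14320 CPM in L-AC libraries (median 11640); log2 fold change -0.75, SE 0.121, adjusted p = 2.23e-05), and Apoa2 fell by 0.73 (adjusted p = 2.04e-04). Apob (log2 fold change -0.16, adjusted p = 0.178) and Apoa1 (log2 fold change -0.12, adjusted p = 0.585) were not called. Mttp, which loads lipid onto apolipoprotein B, rose from a median of 362 to 769 CPM (log2 fold change 1.02, adjusted p = 5.94e-09).

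**Figure D3:**
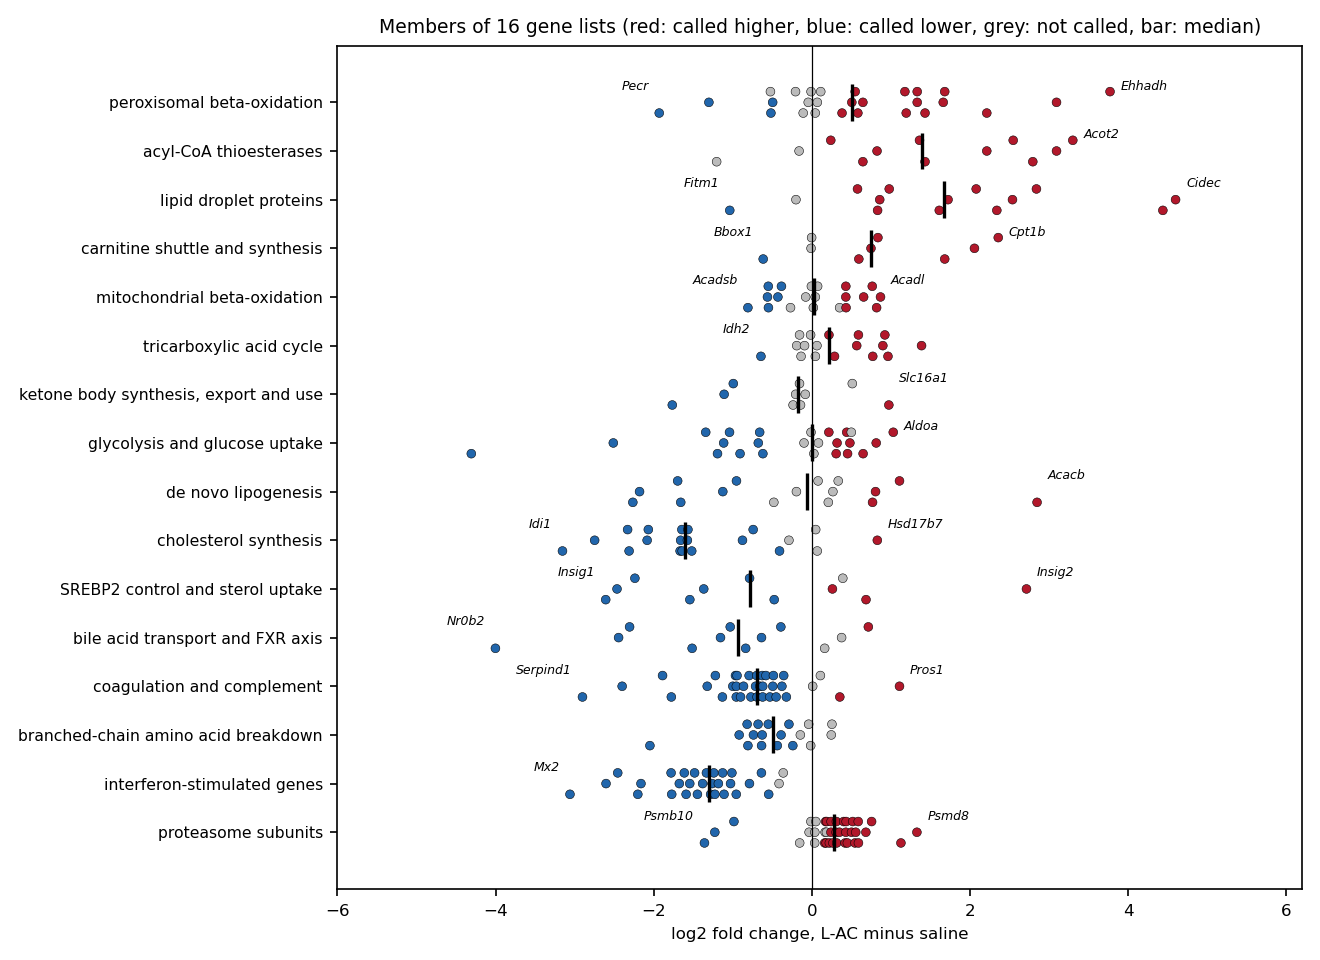
Log2 fold change (L-AC minus saline) of every tested member of 16 gene lists, with red points called higher, blue called lower, grey not called, and a bar at the median of the list. Outermost members are labelled where the text gives their values. The lipid droplet and thioesterase members lie mostly right of 0, the cholesterol synthesis, interferon and coagulation members mostly left, and the list of SREBP2 control has Insig1 and Insig2 at opposite ends.

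Among genes of proteins secreted by the liver, those of coagulation and complement fell as a group. Of 35 coagulation and complement genes 31 were called lower and 2 higher (median -0.70), and 23 had every L-AC library below every saline library, as had 12.1% of all genes. Serpind1, the thrombin inhibitor heparin cofactor II, ran from 325 to 422 CPM (median 379.5) under saline and from 28.3 to 90.8 CPM (median 47.6) under L-AC (log2 fold change -2.9, SE 0.252, adjusted p = 4.68e-09). Klkb1, plasma prekallikrein, held 122 to 164 CPM in saline libraries (median 134) against 16.3 to 37.6 CPM in L-AC libraries (median 26.5) (log2 fold change -2.4, SE 0.179, adjusted p = 5.36e-10). Plg, the plasmin precursor, fell from a median of 2581 to 1263 CPM (log2 fold change -1.0, adjusted p = 1.11e-07). The vitamin K-dependent factors F7, Proc and F10 fell, with log2 fold changes of -1.22, -0.95 and -0.95, while Pros1, the cofactor of protein C, rose by 1.11 (adjusted p = 3.25e-05).

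Albumin changed little by comparison: Alb held 34070 to 43130 CPM in saline libraries (median 37630) against 24920 to 34000 CPM in L-AC libraries (median 28370) (log2 fold change -0.43, SE 0.151, adjusted p = 0.0213), and without L-AC replicate 4 it was no longer called (adjusted p = 0.051). Trf, the iron carrier transferrin, fell from a median of 10490 to 5194 CPM (log2 fold change -1.01, adjusted p = 1.16e-06). Among 23 acute-phase genes 7 fell and 1 rose. Saa4, a constitutive serum amyloid, ran from 173 to 334 CPM (median 245) under saline and from 11.4 to 30.3 CPM (median 16.2) under L-AC (log2 fold change -3.76, SE 0.341, adjusted p = 8.61e-09), with no overlap. Of 20 major urinary protein genes, near-identical copies counted at the primary alignment, 16 were called lower. In 1 of the 20, Mup3, the groups did not overlap. It ran from 4229 to 8025 CPM under saline and from 3123 to 4117 CPM under L-AC (log2 fold change -0.69, SE 0.151, adjusted p = 6.04e-04). Mup15, which ranked 6 by TPM under saline, was a weaker call. It ran from 4402 to 22530 CPM (median 16480) under saline and from 6084 to 10660 CPM (median 8878) under L-AC (log2 fold change -0.79, SE 0.274, adjusted p = 0.0195). For Mup15 the L-AC range lay within the saline range, and limma-voom did not call it (adjusted p = 0.0581). The listed span of Mup15 takes in those of Mup7 and Mup2, so its level can include reads also counted for them.

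Genes of the interferon response fell across the list. Of 30 tested, 28 were called lower, with a median of -1.31, and their summed level was 373 to 545 CPM (median 500.2) under saline and 160.5 to 339 CPM (median 202) under L-AC. Stat2, a subunit of the interferon-activated transcription factor, held 61.8 to 90.5 CPM in saline libraries (median 81) against 18.4 to 39.2 CPM in L-AC libraries (median 27.7) (log2 fold change -1.48, SE 0.144, adjusted p = 2.45e-08). Mx2, an antiviral GTPase, ran from 5.78 to 12.2 CPM (median 10.1) under saline and from 0.248 to 2.63 CPM (median 1.05) under L-AC (log2 fold change -3.06, SE 0.367, adjusted p = 5.01e-07), from 200 to 411 reads in saline libraries and 9 to 65 in L-AC libraries. Isg15, a ubiquitin-like protein, fell by 2.2 and the GTPase Irgm1 fell by 1.38. Antigen presentation genes fell too, 11 of 21 lower and 1 higher (median -0.60). Of the Kupffer cell markers 8 of 10 were called lower, and 0 at an adjusted p under 0.01. Their summed level was 93.5 to 318 CPM (median 115) under saline and 60.7 to 131 CPM (median 90.2) under L-AC, with overlap. Of the defining genes, Clec4f ran from 21.2 to 76.8 CPM (median 26.2) under saline and from 14.5 to 31.7 CPM (median 21.1) under L-AC (log2 fold change -0.82, adjusted p = 0.0163). The groups overlapped, and the number of markers called lower was 3 or 4 without any of 6 libraries (saline replicates 4, 6 and 7, L-AC replicates 4, 5 and 6), 4 under scaling by total counts and 5 in a fit of the wild-type libraries alone. The part of these cells in the fall of interferon genes was not tested, and in bulk liver fewer cells of a type and less RNA per cell cannot be told apart.

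Proteasome genes rose, with 27 of 38 called higher and 3 lower (median 0.29). Psmd4, a ubiquitin receptor of the regulatory particle, held 113 to 145 CPM in saline libraries (median 128) against 229 to 298 CPM in L-AC libraries (median 283) (log2 fold change 1.13, SE 0.0723, adjusted p = 7.07e-11), and Psmd8 rose from a median of 104 to 269 CPM (log2 fold change 1.33, adjusted p = 7.05e-10). The members called lower were Psmb8, Psmb9 and Psmb10, the interferon-inducible catalytic subunits of the immunoproteasome, which fell, with log2 fold changes of -0.99, -1.23 and -1.36 (adjusted p = 7.01e-06, 3.97e-04 and 1.11e-08).

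Xenobiotic metabolism fell broadly. Of 50 cytochrome P450 genes of families 1 to 3 31 were called lower and 2 higher (median -0.79), and of 45 conjugating enzymes 32 lower (median -0.49). The conjugating enzymes called lower numbered 20 without L-AC replicate 2, 21 without L-AC replicate 5 and 20 under scaling by total counts. Cyp2e1, the ethanol-oxidising enzyme, which ranked 11 by TPM under saline, ran from 8367 to 11070 CPM (median 10270) under saline and from 5373 to 6846 CPM (median 5996) under L-AC (log2 fold change -0.74, SE 0.153, adjusted p = 3.22e-04), with no overlap. Cyp2f2 fell from a median of 944 to 291 CPM (log2 fold change -1.62, adjusted p = 5.99e-08), and the glutathione transferase Gsta3 fell by 1.89. Cyp2b10, the classical target of the receptor CAR, rose: 0.43 to 5.71 CPM in saline libraries (median 2.4) against 16.6 to 60.2 CPM in L-AC libraries (median 37.6) (log2 fold change 3.97, SE 0.579, adjusted p = 6.16e-06), while Nr1i3, which encodes CAR, fell by 0.77 (adjusted p = 0.00196). Por, the reductase that feeds electrons to these enzymes, rose from a median of 233 to 1336 CPM (log2 fold change 1.77, adjusted p = 2.05e-06). Aox3, an aldehyde oxidase, fell from a median of 619 to 32.5 CPM (log2 fold change -4.07, adjusted p = 1.94e-10).

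Among amino acid breakdown genes, those of the branched chains fell, and 13 of 18 were called lower (median -0.49). Ivd, of leucine breakdown, ran from 132 to 175 CPM (median 163) under saline and from 74.1 to 100.3 CPM (median 79.3) under L-AC (log2 fold change -0.92, SE 0.097, adjusted p = 7.98e-08). In tryptophan breakdown (3 higher, 7 lower of 14) the entry enzymes parted: Ido2 held 36.9 to 71.6 CPM in saline libraries (median 66.8) against 1.73 to 18.1 CPM in L-AC libraries (median 4.35) (log2 fold change -3.29, SE 0.407, adjusted p = 7.43e-07), and Tdo2, the main hepatic enzyme, rose from a median of 1568 to 2507 CPM (log2 fold change 0.68, adjusted p = 1.72e-04).

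The methionine cycle showed a similar division, with 3 of 14 genes higher and 9 lower. Mat1a, which makes S-adenosylmethionine, ran from 3986 to 8574 CPM (median 4888) under saline and from 8539 to 15090 CPM (median 12310) under L-AC (log2 fold change 1.18, SE 0.171, adjusted p = 5.60e-06), and 1 saline library lay just inside the L-AC range. Bhmt, which remakes methionine from betaine, held 1919 to 6834 CPM in saline libraries (median 3806) against 548 to 1942 CPM in L-AC libraries (median 1421) (log2 fold change -1.42, SE 0.386, adjusted p = 0.00367). Cth, of cysteine synthesis, fell by 1.77 (adjusted p = 2.07e-06). In the urea cycle list (4 higher, 6 lower of 13), Arg1, the arginase, rose from a median of 928 to 2495 CPM (log2 fold change 1.19, adjusted p = 4.93e-06) and Otc fell from a median of 362 to 163 CPM (log2 fold change -1.05, adjusted p = 6.63e-06). Cps1, the entry enzyme, was not called (log2 fold change 0.59, adjusted p = 0.0668) but passed by DESeq2 (adjusted p = 0.0475), under scaling by total counts (adjusted p = 0.0456), without L-AC replicate 3 (adjusted p = 0.0374) and without saline replicate 1 (log2 fold change 0.84, adjusted p = 0.00462). Car5a, a mitochondrial carbonic anhydrase that supplies its bicarbonate, fell from a median of 53.9 to 3.16 CPM (log2 fold change -3.94, adjusted p = 8.35e-11).

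Hepatocytes differ in gene expression along the lobule. Of 17 pericentral genes 10 were called lower (median -0.74), and of 13 periportal genes 6 lower and 4 higher (median -0.36). The summed level of the pericentral genes was 11360 to 14640 CPM (median 13670) under saline and 7192 to 9163 CPM (median 8199) under L-AC, and that of the periportal genes was 9168 to 14810 CPM (median 10910) under saline and 11360 to 14440 CPM (median 13370) under L-AC. Notum, a WNT inhibitor and pericentral WNT target, ran from 31.9 to 55.5 CPM (median 39.3) under saline and from 5.09 to 12.4 CPM (median 6.71) under L-AC (log2 fold change -2.4, SE 0.211, adjusted p = 5.55e-09). Rnf43 and Lgr5, which set WNT receptor levels, fell, with log2 fold changes of -1.79 and -2.6 (adjusted p = 9.96e-07 and 1.76e-06), but Axin2, another WNT target, was not called (log2 fold change -0.08, adjusted p = 0.708). Glul, the glutamine synthetase of the last pericentral cells, fell by 1.04 (adjusted p = 2.89e-04).

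In the growth hormone axis 7 of 14 genes fell and 2 rose (median -0.45). Ghr, the receptor, held 325 to 542 CPM in saline libraries (median 515) against 148 to 257 CPM in L-AC libraries (median 175) (log2 fold change -1.31, SE 0.154, adjusted p = 3.67e-07), without overlap. Igfals, the carrier subunit of circulating IGF, fell by 1.73 (adjusted p = 4.43e-07). Igf1 itself ran from 342 to 629.5 CPM (median 403) under saline and from 361 to 577 CPM (median 429.8) under L-AC, and with overlapping groups was not called (log2 fold change 0.01, adjusted p = 0.964). Hsd3b5, a male-biased and growth hormone-dependent gene of a family of close copies, ran from 13.9 to 119 CPM (median 58.7) under saline and from 1.66 to 4.62 CPM (median 2.83) under L-AC (log2 fold change -4.48, SE 0.538, adjusted p = 4.99e-07).

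Of 25 metabolic nuclear receptor genes 12 fell and 4 rose (median -0.43). Ppara rose by 0.29 (SE 0.078, adjusted p = 0.00313), a small change beside that of its known targets. Hnf4a, the hepatocyte identity factor, was not called (log2 fold change -0.18, adjusted p = 0.183). Among hormones and receptors of fasting, 5 of 17 rose and 9 fell. Lepr, the leptin receptor, ran from 1.39 to 19.3 CPM (median 2.81) under saline and from 7.84 to 183 CPM (median 99.9) under L-AC (log2 fold change 4.38, SE 0.85, adjusted p = 1.72e-04). Its groups overlapped: saline replicate 1 held 19.3 CPM and L-AC replicate 3 held 7.84 CPM. Inhbe, an activin subunit, rose by 1.36 (adjusted p = 1.54e-05), and Ahsg, which encodes fetuin-A, fell by 1.25 (adjusted p = 2.03e-06).

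The integrated stress response, in which ATF4 induces amino acid and redox genes, had 7 of 18 genes called higher and 1 lower (median 0.24), and 4 higher without saline replicate 3 or 6. Slc3a2, a subunit of amino acid exchangers, rose from a median of 43.9 to 123 CPM (log2 fold change 1.51, adjusted p = 8.79e-09). Fgf21, the fasting hormone of liver, held 13.6 to 33.6 CPM in saline libraries (median 23.3) against 15.7 to 94.9 CPM in L-AC libraries (median 49.1) (log2 fold change 1.16, SE 0.445, adjusted p = 0.0326). The groups overlapped, limma-voom did not call it (adjusted p = 0.0812), and neither did the fit without any of 6 of the 13 libraries in turn (adjusted p up to 0.106). Ddit3, which encodes CHOP, fell (log2 fold change -0.95, adjusted p = 0.0114). Asns, the asparagine synthetase, depended on saline replicate 1, which held 29.3 CPM, against a median in the group of 0.645 CPM and 2.06 to 7.12 CPM in the L-AC libraries. With it Asns was not called (log2 fold change 0.11, adjusted p = 0.92), and without it Asns rose by 2.94 (adjusted p = 1.74e-05). The call also depended on the method, since limma-voom called it higher with all libraries (log2 fold change 2.48, adjusted p = 0.0032). Nupr1, a small stress-induced protein, rose at a low level (from a median of 0.405 to 1.07 CPM; log2 fold change 1.47, adjusted p = 0.026).

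The ATF4 element TGATGCAAT was present in the 250 bases before the start of 0.1814% of all genes tested (19 genes), and of 2 of the 18 genes of this list, Fgf21 and Nupr1. Their promoters are shown for that element, in capitals and reading ATTGCATCA on the strand given, over the 150 bases before the RefSeq start (GRCm38.p6).
Fgf21, chr7:45615491-45615640, minus strand: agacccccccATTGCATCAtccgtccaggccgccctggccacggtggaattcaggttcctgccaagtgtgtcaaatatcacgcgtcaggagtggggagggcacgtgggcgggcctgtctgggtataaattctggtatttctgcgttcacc
Nupr1, chr7:126625471-126625620, minus strand: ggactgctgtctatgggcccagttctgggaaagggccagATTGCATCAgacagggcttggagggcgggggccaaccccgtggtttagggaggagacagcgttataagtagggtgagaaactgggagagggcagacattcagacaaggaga
Both genes rose with adjusted p-values near the threshold, so the element stood before 2 of the weaker calls of the list. The element known for PPARA with its partner RXR, AGGTCA repeated directly with 1 base between, was present in these windows for 7 genes in all (0.06683%) and for none of the peroxisomal beta-oxidation genes with a listed promoter, which says only that these exact letters are not in this window.

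Chaperones of the endoplasmic reticulum did not rise: 7 of 16 were called lower (median -0.58), and 13 lower without L-AC replicate 5. Hspa5, which encodes BiP, was not called (log2 fold change -0.34, adjusted p = 0.383), but without L-AC replicate 5 it was called lower (log2 fold change -0.82, adjusted p = 0.0115). The disulfide isomerase Pdia6 fell by 1.17 (adjusted p = 1.03e-04). Of 17 NRF2 and glutathione genes 4 rose and 5 fell, the latter 2 or 3 without any of 7 libraries and 2 under scaling by total counts. Srxn1, a sulfiredoxin, rose from a median of 53 to 214 CPM (log2 fold change 2.07, adjusted p = 1.21e-07), Gclc, of glutathione synthesis, fell from a median of 446 to 145 CPM (log2 fold change -1.55, adjusted p = 4.73e-05), and Nqo1 was not called (log2 fold change 0.32, adjusted p = 0.202). Cdkn1a, which encodes the cell cycle inhibitor p21, ran from 10.5 to 59.8 CPM (median 36.4) under saline and from 181 to 300.3 CPM (median 195) under L-AC (log2 fold change 2.56, SE 0.395, adjusted p = 1.28e-05), without overlap.

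**Figure D4:**
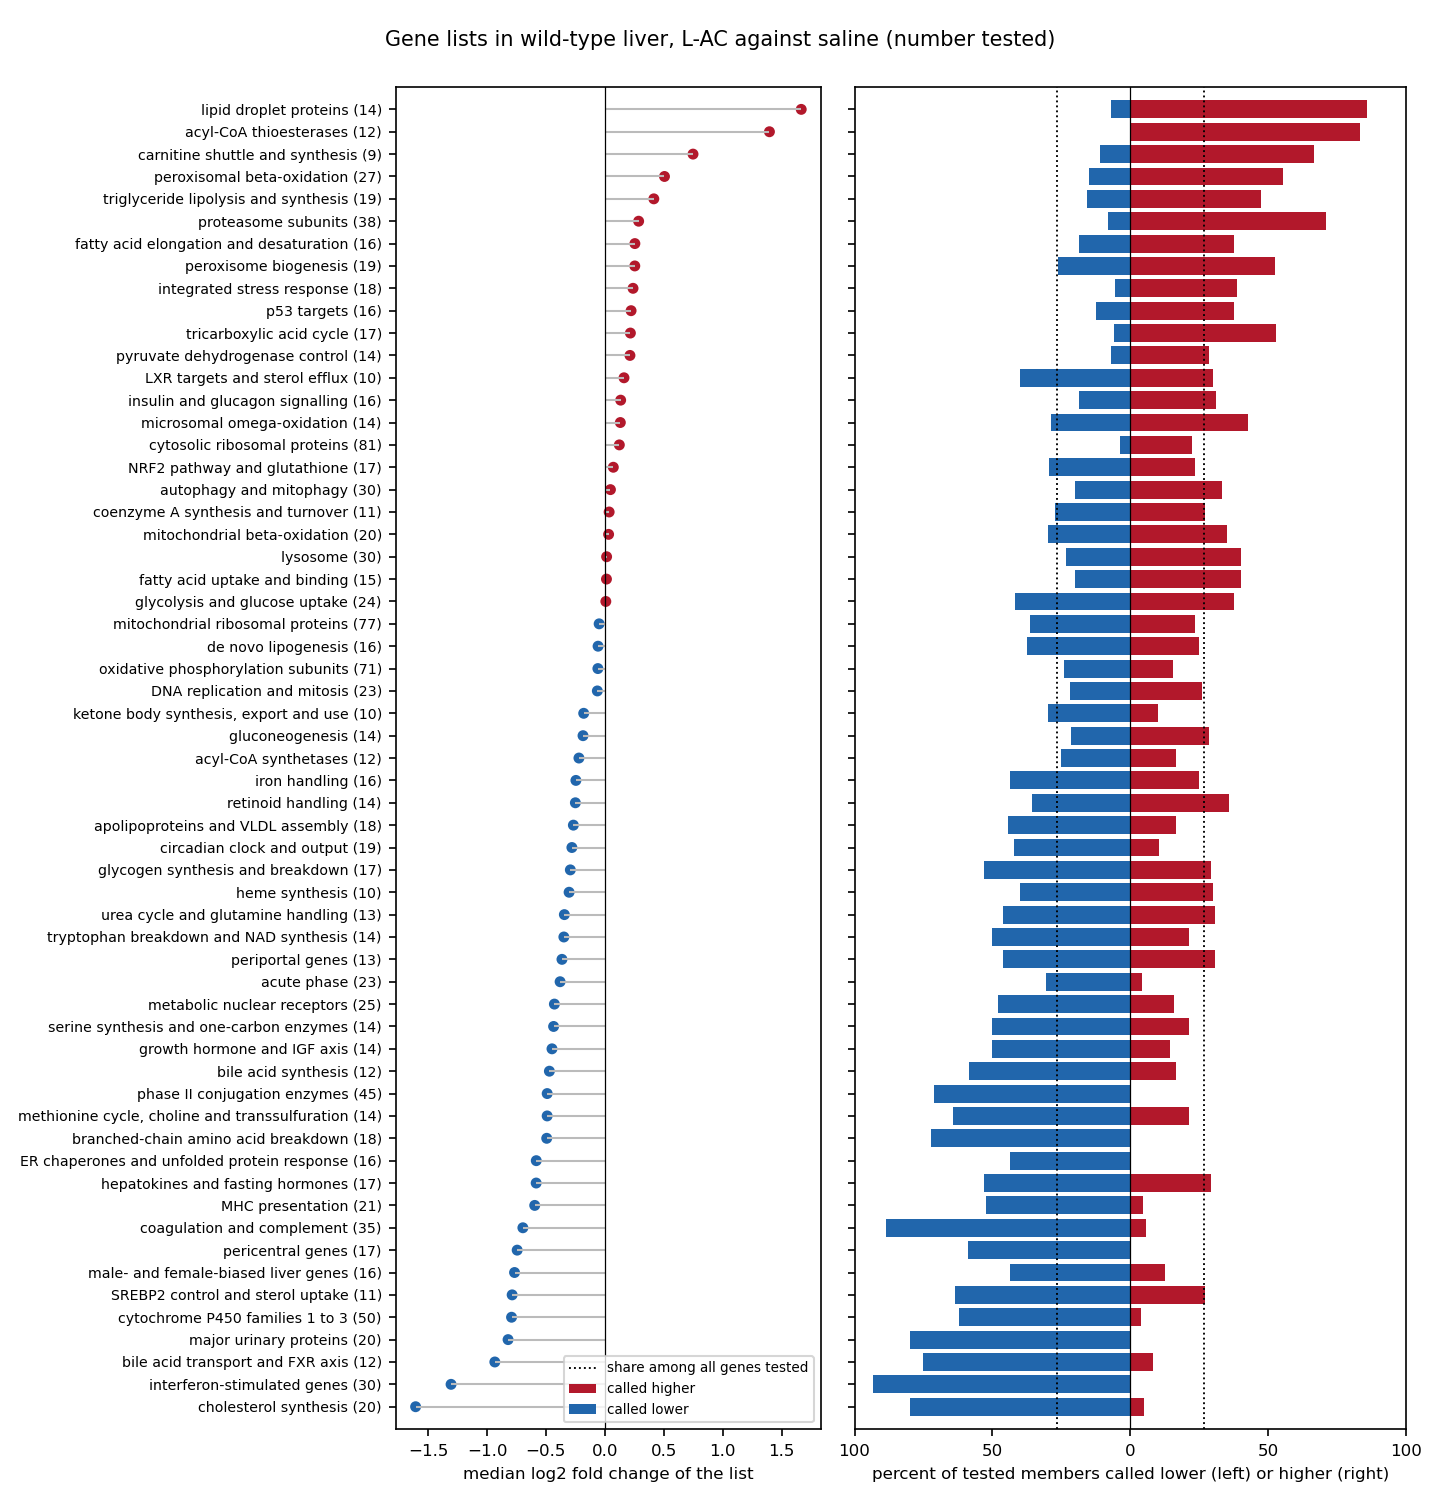
Left, median log2 fold change of each pathway list with at least 9 tested members (number tested in brackets). Right, percent of its tested members called lower (blue, to the left) or higher (red, to the right), with dotted lines at the shares among all genes tested. Lipid droplet and thioesterase genes stand at the top and cholesterol synthesis and interferon-stimulated genes at the bottom. Lists in the middle have calls in both directions, with shares that differ between lists.

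Markers of other cell types differed from list to list. Endothelial markers had 1 of 9 genes called lower (median 0.11). Those of monocytes and neutrophils had 1 of 6 called lower (median -0.48), at a summed level of at most 5.56 CPM. Of the B cell markers 4 of 5 were called lower, 2 without L-AC replicate 1 and 1 among genes with at least 1 CPM in 5 libraries. The stellate cell and fibroblast markers summed to 129.9 to 207 CPM (median 163) under saline and 190.4 to 259.8 CPM (median 200.1) under L-AC, with 3 of 11 called higher (1 without L-AC replicate 5) and 1 lower (median -0.03), a share of higher calls near that over all genes. The member called lower was the collagen gene Col3a1 (log2 fold change -1.09, adjusted p = 0.00252). The markers of lipid-laden macrophages summed to 42.2 to 67 CPM (median 55) under saline and 41.2 to 79 CPM (median 52.6) under L-AC. Of 9 tested, 2 were called higher and 2 lower (median -0.02), the latter 0 to 3 when 1 library was left out. Among these markers Gpnmb rose from 6 to 24 reads in the saline libraries to 117 to 487 reads in the L-AC libraries (log2 fold change 4.09, adjusted p = 9.82e-06), while Trem2 had at most 17 reads in any library. Of the fat cell markers, Adipoq, Lep and Retn were too low to test, and of the 4 tested 2 were called higher (median 1.55), with a summed level of 18.9 to 29.6 CPM (median 27.1) under saline and 44.3 to 147 CPM (median 69.1) under L-AC. The 2 called higher were Fabp4, given above, and the droplet coat gene Plin1 (log2 fold change 2.84, adjusted p = 2.69e-04), which stayed at or below 0.44 CPM. Only 1 was called without L-AC replicate 2 or 5, among genes with at least 1 CPM in 5 libraries, and in a fit of the wild-type libraries alone. The part of fat cells in the rise of the droplet genes was not tested. Tg, the thyroglobulin gene, had 1 to 3 reads in saline libraries and 112 to 605 in L-AC libraries, and the thyroid genes Tshr, Pax8, Nkx2-1 and Slc5a5 were too low to test. Of the 2 thyroid markers tested, Tg was called higher and the other was called lower, each without overlap of the groups. The lower call was absent among genes with at least 1 CPM in 5 libraries.

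The response could be set against that of the Ehhadh knockout mice, which share no libraries with the wild type. No gene was called for a difference in response between genotypes by edgeR, DESeq2 or limma-voom, and 320, 343 and 310 genes had an unadjusted p under 0.05. The smallest adjusted p by edgeR was 0.9999. Of the 7572 genes called in wild type, 7515 had the same direction in knockout liver and 6005 were called there too, each in the same direction. Over all 14196 genes tested, 6924 were called in knockout liver, and the 6005 are to be read against that count. Plin2 rose by 2.68 in knockout liver (SE 0.148), against 2.54 in wild type. Insig2 rose by 2.67 against 2.71, and the log2 fold change of Cyp7a1 was -6.1 against -5.11. The absence of calls does not show that the responses are equal.

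**Figure D5:**
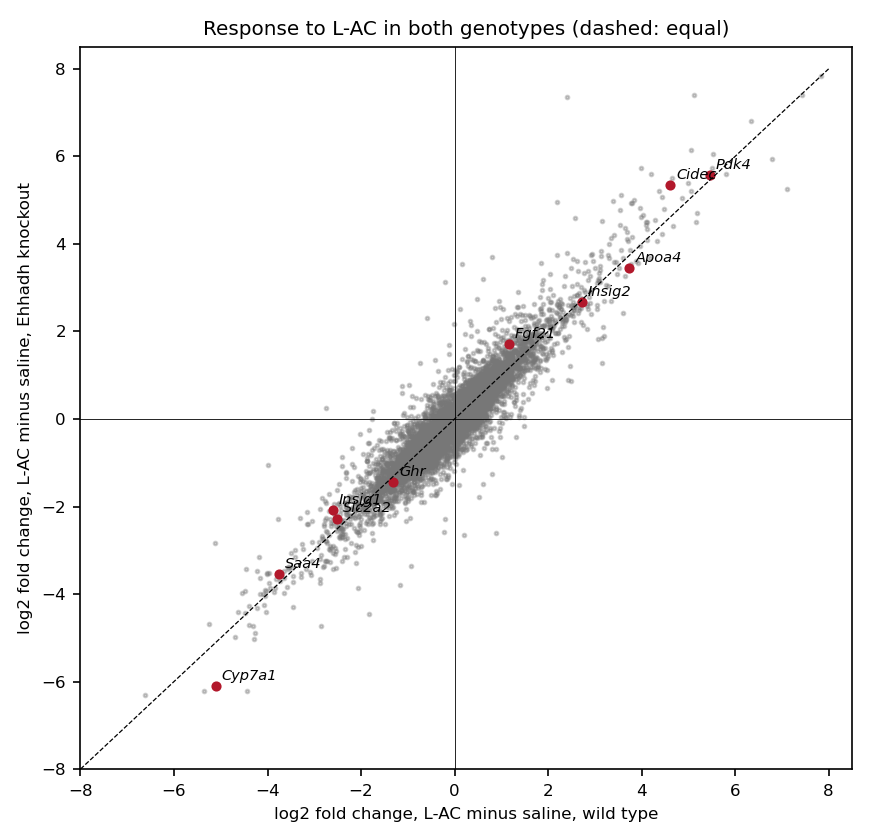
Log2 fold change under L-AC of each of the 14196 genes in wild-type liver (horizontal axis) and in Ehhadh knockout liver (vertical axis), with 10 genes marked in red and a dashed line where both are equal. The genes lie along the dashed line, with 7515 of the 7572 called in wild type on the same side of 0.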

How the data were processed

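RNA from the liver of 13 wild-type mice, 7 given saline and 6 given L-AC, was sequenced as polyA-selected single-end libraries, and 10 libraries of Ehhadh knockout mice entered the same fit. The deposited values are whole read counts per gene, made by the authors with featureCounts 1.4.4 on primary alignments without regard to strand, with reads in overlapping genes counted for each, per the file headers. STAR 2.4.0, the build mm10 (GRCm38) and edgeR are named in the submitters' processing notes, with no role given. Because strand was not used, antisense and overlapping genes cannot be told apart, and near-identical copies can share reads.

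The files list 24062 genes. Genes that passed filterByExpr (minimum count 10, minimum total 15) were tested, 14196 in all, and 99.95% or more of every library's reads fell in them. The edgeR package 4.0.16 (R 4.3.3) was used for TMM scaling and the quasi-likelihood test, with 1 mean for each of the 4 groups, the contrast of L-AC with saline in wild-type liver, and Benjamini-Hochberg adjustment over all genes tested. The difference of this contrast between genotypes was tested in the same fit. CPM and TPM were computed here from the counts. The log2 CPM behind the principal components had a prior count of 1, and the fitted log2 fold changes used the default of edgeR. The procedure was run on simulated data in which far fewer genes were changed than were called here. That run therefore does not test the calls when most genes move. DESeq2 1.42.0, limma-voom (limma 3.58.1), other filters and scalings, age as a covariate, the wild-type libraries alone and each library left out were alternatives, and scaling by total counts was added after seeing the data.

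Replicates are numbered in accession order and differ from each other by more than sampling noise (chi-square per degree of freedom at least 44.1 for any pair within a group). The members and the 73 gene lists (60 of pathways and 13 of cell type markers) were chosen with earlier results of these data known, and no list was tested as a set. A gene can be in several lists. Genes were named by a rule: called, at least 5 CPM in the higher group and not a predicted transcript, as the 15 rising and 15 falling with the largest fold, the 10 and 10 with the largest CPM difference, and up to 6 members of each list with the smallest p. Uncalled members by which a list is known were also named, and some genes are not reported here. Abcd2, Acaa1a, Acaa2, Bbox1, Bhmt, Cat, Cideb, Cyp2b10, Cyp4a10, Cyp8b1, Dhcr7, Fitm1, Hsd17b4, Hsd17b7, Idh2, Lss, Npc1, Nr1h4, Nr1i3, Nupr1, Phyh, Plin1, Pmvk, Pros1, Scp2, Sqle and Srebf2 are list members outside these counts and were chosen after their values were seen. Promoters come from RefSeq (GRCm38.p6).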

Additional observations from a re-analysis of the deposited data

Results flagged for a closer look

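In each group, a library was taken to stand apart where its gap to the nearest other library was large against the range of the whole group (Dixon's test at the 95% level). Of 116 groups examined, 12 had such a library (10.3%), and chance gives about 1 in 20. Saline replicate 7 was the highest of its group for Acaa1b (4095 CPM) and Acot1 (439.9 CPM). Saline replicate 1 was the highest for Apoa4 (2615 CPM), Lepr (19.3 CPM) and Sqle (114 CPM), and the lowest on the second principal component (-55.3). In the L-AC group, replicate 3 was the highest for Cyp7a1 (5.58 CPM), Ido2 (18.1 CPM) and Pecr (62.5 CPM) and the lowest for Psmd4 (228.8 CPM). L-AC replicate 1 was the highest for Cyp8b1 (1472 CPM) and L-AC replicate 6 for Acot2 (671.7 CPM).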

How the results depend on the processing

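The 7572 called genes became 6935 to 7726 when each wild-type library was left out (3469 to 3882 higher and 3465 to 3844 lower), and 7042 to 7761 under the other fits, filters and scalings. With total counts in place of TMM, 7575 were called and the split moved from 3781 higher and 3791 lower to 4351 and 3224 (57.4% of calls higher, against 49.9%). That scaling raised the median log2 fold change from -0.01 to 0.06. Of 174 named genes that were called, 168 kept the call under every alternative at the same threshold, 6 lost it under at least 1 (Alb, Clec4f, Fgf21, Hmgcs1, Mup15 and Nupr1), and 0 changed direction. At an adjusted p under 0.01, 11 lost it. Genes not called that changed sign when 1 library was left out were Asns (-0.11 to 2.94), Dhcr7 (-0.0465 to 0.41), Igf1 (-0.0777 to 0.115), Pmvk (-0.27 to 0.30) and Lss (-0.38 to 0.0438), with Pmvk at -0.0428 with age as a covariate. Of the named genes not called, Asns, Cps1, Cyp27a1, Hspa5 and Scp2 gained a call under at least 1 alternative. The causes were not tested. Of 98 list counts of at least 3 members, 13 moved by over 1.5 times without 1 library and 6 under another fit or scaling. No paired analysis was possible because the replicate numbers follow accession order and tie no libraries together. Depth limits genes with few reads, and the labels do not give dose, duration or feeding state.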

Other observations

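Genes of retinoid handling moved apart, 5 of 14 higher and 5 lower. Aldh1a1, which makes retinoic acid, fell from a median of 1837 to 471 CPM (log2 fold change -1.84, adjusted p = 6.05e-07), and Dhrs3, which returns retinal to retinol, fell by 1.68 (adjusted p = 9.46e-06). Of the enzymes that clear retinoic acid, Cyp26a1 fell (log2 fold change -4.54, adjusted p = 3.07e-08) and Cyp26b1 rose from a median of 10.2 to 28.2 CPM (log2 fold change 1.62, adjusted p = 8.76e-06). The receptor gene Rarb rose by 0.97 (adjusted p = 1.47e-04). Lysosomal genes were also divided (12 of 30 higher, 7 lower, median 0.01). Grn, which encodes progranulin, rose from a median of 241 to 706 CPM (log2 fold change 1.56, adjusted p = 7.09e-11), and Lipa, the lysosomal acid lipase, from a median of 265 to 499.9 CPM (log2 fold change 0.88, adjusted p = 1.57e-06). Of 30 autophagy genes 10 rose and 6 fell. The mitophagy receptors Optn and Bnip3l rose by 0.70 and 0.98 (adjusted p = 1.50e-09 and 1.02e-07).

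Of 8 tested genes of uncoupling and brown fat, 6 rose and 1 fell (median 1.32). Ucp2, a mitochondrial carrier, rose from a median of 19.9 to 120.2 CPM (log2 fold change 2.23, adjusted p = 2.64e-05), and Slc25a47, a mitochondrial carrier of liver, from a median of 758 to 2167 CPM (log2 fold change 1.48, adjusted p = 8.44e-09). Ucp3, a muscle gene, had 1 to 14 reads in saline libraries and 31 to 112 in L-AC libraries. Circadian genes had 8 of 19 lower and 2 higher, and 5 lower without L-AC replicate 2 or 6. Per1 rose from a median of 47.4 to 107 CPM (log2 fold change 0.99, adjusted p = 0.00202) and Nr1d1 fell by 0.60 (adjusted p = 0.00509). The labels give no time of collection. In iron handling (4 of 16 higher, 7 lower) Ftl1, a ferritin chain, rose by 0.52 (adjusted p = 5.86e-05).

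Large sets of housekeeping genes are given beside the 53.3% called over all genes, with no test of the difference. Of 71 oxidative phosphorylation subunits 11 rose and 17 fell (median -0.06). Of 81 cytosolic ribosomal protein genes 18 rose and 3 fell, and 8 to 11 rose without saline replicate 4 or 5 or L-AC replicate 2 or 4. Of 77 mitochondrial ribosomal protein genes 18 rose and 28 fell. Of 16 genes of fatty acid elongation and desaturation 6 rose and 3 fell, and the elongase Elovl7 rose from a median of 0.831 to 34.9 CPM (log2 fold change 5.54, adjusted p = 1.13e-09). The adrenergic receptor genes moved in opposite directions: Adra2a rose from a median of 0.203 to 7.38 CPM (log2 fold change 5.18, adjusted p = 1.47e-08) and Adrb3 fell from a median of 12.5 to 0.541 CPM (log2 fold change -4.39, adjusted p = 2.35e-08).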
